A study of Mus musculus with 9 samples.

Results

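Expression of 10 genes for scavenger and phagocytic receptors was examined in B cells and macrophages of mice by RNA sequencing. The genes were taken by name from the 55322 genes of the FPKM table (reads on a gene scaled by its exon length and by the depth of the library, so that levels can be compared between genes). They are *Marco*, *Msr1*, *Cd36*, *Scarb1*, *Cd163*, *Cd5l*, *Stab1*, *Mrc1*, *Mertk* and *Axl*, and all 10 had values in every library. No measured value was a criterion of their choice, but they were chosen with earlier results of these data known.

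The study compared CD11b+ and CD11b- B cells of the bone marrow (BM) with peritoneal macrophages (PMs), to ask how far B cells that carry the myeloid surface integrin CD11b also express myeloid genes. All mice were wild-type, and the study's methods give C57BL/6J as the strain. Both B cell groups came from mice given an intraperitoneal injection of LPS (lipopolysaccharide of the bacterial outer membrane, 5 mg/kg) and were sorted 48 h later, after BM cells stained for CD3, CD4, CD8, Gr-1, NK1.1 or TER119 had been depleted. PMs were sorted as CD11b+F4/80+ cells from naive mice without treatment. Each group has 3 libraries, and the sources used here give no age. B cells and PMs therefore differed in cell type, tissue and LPS treatment at once, and these cannot be told apart. The study shows such values with the SD, which it uses for biological replicates, but the sources used here do not say whether a library came from a single mouse or from pooled mice. The p-values measure the spread between these libraries.

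Scavenger receptors bind modified lipoproteins, microbial surfaces, haemoglobin complexes or cell debris and carry them into the cell. The phagocytic receptors of the TAM family (Tyro3, Axl, Mertk) recognize phosphatidylserine on dying cells through the bridging proteins Gas6 and protein S. Tissue-resident macrophages are the classical site of these receptors, and PMs in particular clear dying cells and particles from the cavity. Of the set, *Cd36* and *Scarb1* also work in lipid uptake in many other cell types.

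The depth was between 18014658 and 35251215 reads on genes. *Itgam*, which encodes CD11b and by which the cells were sorted, had 287.7 ± 60.6 FPKM (SD, n = 3) in PMs, against 1.58 ± 0.311 in the CD11b+ and 0.507 ± 0.323 in the CD11b- group of B cells. The 10 B cell markers, among them *Cd79a* and *Pax5*, summed to 6680 to 6995 FPKM in CD11b- and 5245 to 5925 FPKM in CD11b+ B cells, against 61.4 to 117.8 FPKM in PMs. The 10 neutrophil markers summed to 1.77 to 3.05 FPKM in CD11b- B cells but to 628, 1571 and 213 FPKM in CD11b+ replicates 1, 2 and 3, although Gr-1 had been used for depletion. The 7 plasma cell markers summed to 86.8 to 152 FPKM in CD11b- B cells and to 235, 209 and 605 FPKM in CD11b+ replicates 1, 2 and 3, and the 6 erythroid markers to 1.40 to 21.2 FPKM and to 39.1, 39.2 and 27.6 FPKM. The part of these markers in the results below was not tested.

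The DNA before the start of transcription is shown for *Marco*, *Cd5l* and *Axl*, the receptors with the lowest unadjusted p-values between the B cell groups, and for *Cd36*, the highest in both B cell groups. The stretches are the 250 bases upstream of the RefSeq start on GRCm38.p6, written 5′ to 3′ on the strand of the gene, at chr1:120505025-120505274 (minus strand) for *Marco*, chr3:87357631-87357880 (plus strand) for *Cd5l*, chr7:25788734-25788983 (minus strand) for *Axl* and chr5:17835897-17836146 (minus strand) for *Cd36*. Capitals mark GAGGAA, the core that PU.1 and other ETS factors recognize, read on either strand.
Marco: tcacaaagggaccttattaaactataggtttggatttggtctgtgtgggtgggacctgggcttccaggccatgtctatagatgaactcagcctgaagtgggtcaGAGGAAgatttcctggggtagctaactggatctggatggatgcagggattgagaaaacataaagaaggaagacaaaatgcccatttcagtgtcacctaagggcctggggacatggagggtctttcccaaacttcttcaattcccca
Cd5l: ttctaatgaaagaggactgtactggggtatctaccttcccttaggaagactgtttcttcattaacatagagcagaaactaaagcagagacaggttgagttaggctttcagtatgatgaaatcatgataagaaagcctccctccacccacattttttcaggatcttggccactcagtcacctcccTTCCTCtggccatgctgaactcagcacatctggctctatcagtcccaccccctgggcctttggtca
Axl: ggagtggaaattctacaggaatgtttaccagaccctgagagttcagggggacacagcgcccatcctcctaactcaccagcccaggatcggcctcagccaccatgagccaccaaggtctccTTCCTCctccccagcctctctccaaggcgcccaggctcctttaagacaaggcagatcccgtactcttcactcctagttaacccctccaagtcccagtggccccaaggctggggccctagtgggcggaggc
Cd36: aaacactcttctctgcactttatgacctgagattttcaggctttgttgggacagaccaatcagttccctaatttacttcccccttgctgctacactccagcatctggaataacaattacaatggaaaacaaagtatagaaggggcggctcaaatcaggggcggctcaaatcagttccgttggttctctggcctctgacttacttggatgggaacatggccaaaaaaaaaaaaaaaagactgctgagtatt

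RefSeq promoters were found for 8 of the 10 genes, all but *Msr1* and *Scarb1*. GAGGAA was present in 5 of these 8, against 23.3% of all 32851 promoters of the same length. In *Marco* it lies at -146 to -141 from the start, in *Cd5l* at -66 to -61 on the other strand and in *Axl* at -130 to -125 on the other strand. *Stab1* has 1 match at -30 to -25 and *Mrc1* has 3 matches. The *Cd36* window shown has none, and *Cd36* has further starts upstream, since its gene model reaches to position 17888801. Other motifs were searched as well on both strands, and none occurred in the 8 promoters. They were TGANTCA of AP-1, present in 6.75% of all promoters, AGATAA of GATA factors, present in 9.99%, TTGCNNAA of C/EBP factors, present in 9.56%, and CACGTG of the TFE and MITF family, present in 6.02%. A match describes letters in the window and not a bound site.

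In PMs, all 10 genes had a mean of at least 1 FPKM and 8 had at least 10 FPKM. In CD11b- B cells only *Cd36* and *Scarb1* reached 1 FPKM, and 4 genes were below 0.1 FPKM. In CD11b+ B cells 5 genes reached 1 FPKM, which were *Marco*, *Cd36*, *Cd5l*, *Scarb1* and *Axl*, and none was below 0.1 FPKM. The sum of the 10 levels was 1182 ± 109 FPKM in PMs, 29.2 ± 12.3 FPKM in CD11b- and 44.3 ± 19.4 FPKM in CD11b+ B cells (SD, n = 3 each). *Marco*, *Cd5l* and *Msr1* made up 82.2% to 84.5% of the sum in PM libraries, whereas *Cd36* alone made up 68.1% to 85.5% in CD11b- and 51.8% to 76.0% in CD11b+ B cells. In this bulk RNA, fewer cells of a type and less RNA per cell cannot be told apart.

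**Figure D1:**
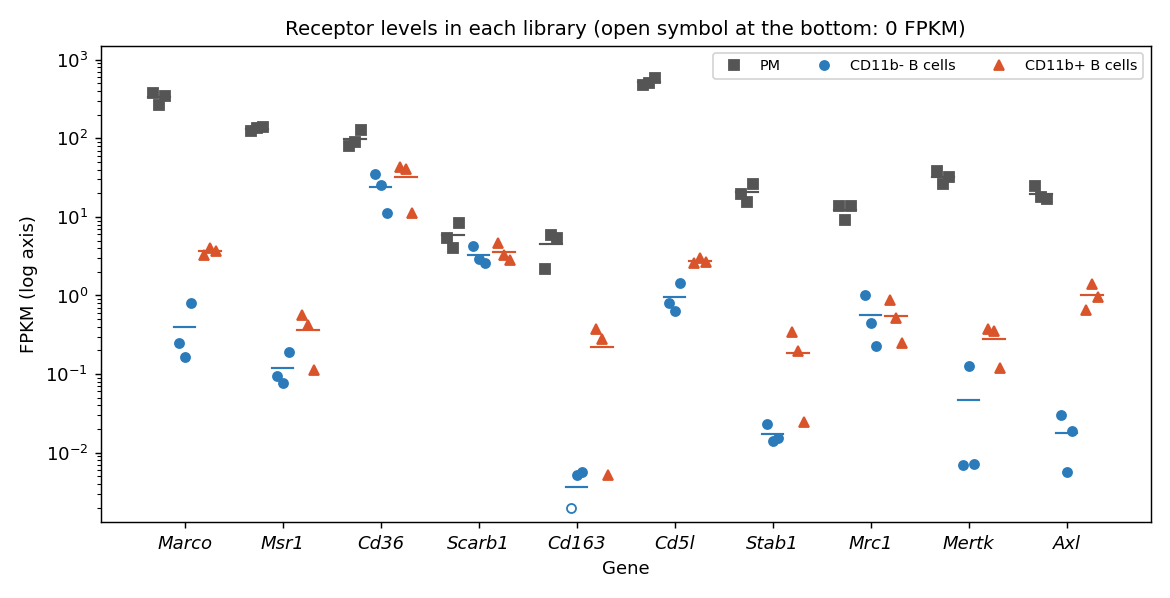
FPKM of the 10 receptor genes in each library on a log axis, with squares for PMs, circles for CD11b- B cells and triangles for CD11b+ B cells, and a line at the mean of 3 libraries. PM libraries lie above all B cell libraries except for *Scarb1*, and the CD11b+ libraries lie above all CD11b- libraries for *Marco*, *Cd5l*, *Stab1* and *Axl*.

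In PMs the order of the levels was *Cd5l*, *Marco*, *Msr1*, *Cd36*, *Mertk*, *Stab1*, *Axl*, *Mrc1*, *Scarb1* and *Cd163*, from 522.9 down to 4.51 FPKM. Neighbours whose libraries overlapped were *Msr1* and *Cd36*, *Mertk* and *Stab1*, *Stab1* and *Axl*, and *Scarb1* and *Cd163*. In CD11b- B cells the order was *Cd36*, *Scarb1*, *Cd5l*, *Mrc1*, *Marco*, *Msr1*, *Mertk*, *Axl*, *Stab1* and *Cd163*, and the neighbours from *Cd5l* down to *Stab1* overlapped. In CD11b+ B cells *Cd36* came first by a clear gap, followed by *Marco*, *Scarb1* and *Cd5l*, whose neighbouring levels overlapped, and then by *Axl*, *Mrc1*, *Msr1*, *Mertk*, *Cd163* and *Stab1*, whose neighbouring levels overlapped as well. Thus *Marco* had rank 5 in CD11b- and rank 2 in CD11b+ B cells.

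The first question was whether the receptors differ between CD11b+ and CD11b- B cells. With limma on log2(FPKM + 1), adjusted by Benjamini-Hochberg over 21778 genes with a threshold of 0.05, none of the 10 receptor genes passed, and 0.0689% of all genes tested passed as higher. The adjusted p-values ran from 0.0922 to 0.9998. An unadjusted limma p under 0.05 was found for 3 genes (*Marco*, *Cd5l* and *Axl*), all higher in CD11b+ B cells. Of the 21778 genes, 1012 were higher and 661 lower at that level. The mean was higher in CD11b+ B cells for 9 of the 10 genes, with a median log2 difference of 0.28 against 0.03 over all genes tested. How many of all genes had a higher mean was not counted. For 4 genes every CD11b+ library was above every CD11b- library, a pattern that 8.63% of all genes tested had. For those 4 the exact two-sided permutation test gave p = 0.1, the smallest value that 3 libraries against 3 allow.

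Count models on the whole reads behind the FPKM values called more of them. edgeR's quasi-likelihood test with a filter on low counts tested 8 of the 10 and called *Axl* (adjusted p = 0.0239), with 0.269% of all genes called higher. Without the filter edgeR called *Marco*, *Cd163* and *Axl*, with 1.11% of all genes called higher. DESeq2 called *Marco*, *Cd163*, *Cd5l*, *Stab1* and *Axl*, with 1.82% of all genes called higher. On log2(FPKM + 1) a change of a gene far below 1 FPKM is small by construction.

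The class A receptors *Marco* and *Msr1* encode trimers with a collagenous stalk that bind bacteria, particles and modified lipoproteins. *Marco* (ENSMUSG00000026390, chromosome 1, 120474538 to 120505024 on GRCm38, minus strand) had 3.27, 4.01 and 3.64 FPKM in CD11b+ replicates 1, 2 and 3, and 0.249, 0.164 and 0.794 FPKM in CD11b- replicates 1, 2 and 3. All CD11b+ libraries were above all CD11b- libraries and close to each other. The ratio of the means was 9.05, and the log2 difference was 1.75 ± 0.26 (SE, limma adjusted p = 0.0922). CD11b- replicate 3 was the highest of its group, and without it the ratio was 17.6. In PMs *Marco* had 381, 266 and 347 FPKM, so that the CD11b+ mean was 1.10% and the CD11b- mean 0.121% of the PM mean.

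*Msr1* (ENSMUSG00000025044, chromosome 8, 39581685 to 39642673, minus strand) had 0.558, 0.416 and 0.112 FPKM in CD11b+ and 0.0945, 0.0768 and 0.192 FPKM in CD11b- replicates 1, 2 and 3. CD11b+ replicate 3 fell among the CD11b- libraries, so the groups overlapped. The log2 difference was 0.27 ± 0.16 (SE, limma adjusted p = 0.714). PMs had 124, 137 and 139 FPKM, the narrowest relative spread of the set in that group. Of the receptors, *Msr1* kept the smallest share of the PM mean in CD11b+ B cells, 0.271%.

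The class B receptors *Cd36* and *Scarb1* encode membrane proteins with a pair of membrane-spanning ends that take up fatty acids, oxidized low-density lipoprotein and, for *Scarb1*, cholesterol from high-density lipoprotein. *Cd36* (ENSMUSG00000002944, chromosome 5, 17781690 to 17888801, minus strand) had 43.2, 40.7 and 11.4 FPKM in CD11b+ and 34.7, 25.7 and 11.3 FPKM in CD11b- replicates 1, 2 and 3. The groups overlapped widely, and in each the third replicate was the lowest. The log2 difference was 0.32 ± 0.55 (SE, limma adjusted p = 0.843). PMs had 80.6, 88.9 and 128 FPKM, above every B cell library.

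*Scarb1* (ENSMUSG00000037936, chromosome 5, 125277087 to 125341094, minus strand) had 4.61, 3.29 and 2.81 FPKM in CD11b+, 4.27, 2.89 and 2.56 FPKM in CD11b- and 5.34, 4.08 and 8.46 FPKM in PM replicates 1, 2 and 3. It was the only receptor whose PM libraries overlapped those of both B cell groups. The difference between the B cell groups was 0.11 ± 0.26 on the log2 scale (SE, limma adjusted p = 0.896).

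*Cd163* and *Cd5l* belong to the family with scavenger receptor cysteine-rich domains. *Cd163* takes up complexes of haptoglobin and haemoglobin, and *Cd5l* encodes AIM, a protein that macrophages secrete and that binds debris and lipids. *Cd5l* is thus counted with the receptors as a member of the set, although its product is secreted. *Cd163* (ENSMUSG00000008845, chromosome 6, 124304656 to 124330527, plus strand) had 0.374, 0.280 and 0.0052 FPKM in CD11b+ replicates 1, 2 and 3, from 60, 40 and 1 reads. In CD11b- B cells it had 0, 0.00525 and 0.00571 FPKM, from 2 reads in all. Replicates 1 and 2 of CD11b+ B cells stood apart, and replicate 3 lay within the CD11b- range. The ratio of the pooled reads, each divided by its depth, was 55.8 with a 95% interval of 15.1 to 467, which covers counting error only. Without CD11b+ replicate 1 the ratio of the mean FPKM was 39.0, against 60.1 with all libraries. The log2 difference of 0.27 ± 0.14 (SE) had a limma adjusted p of 0.684.

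*Cd5l* (ENSMUSG00000015854, chromosome 3, 87357881 to 87371073, plus strand) had 2.61, 2.98 and 2.65 FPKM in CD11b+ and 0.809, 0.633 and 1.46 FPKM in CD11b- replicates 1, 2 and 3. The CD11b+ libraries were close to each other and all above the CD11b- libraries. The ratio of the means was 2.84 and the log2 difference 0.95 ± 0.26 (SE, limma adjusted p = 0.408). In PMs *Cd5l* was the highest gene of the set, with 477, 511 and 581 FPKM, and CD11b+ B cells had 0.525% of that mean.

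*Stab1* (ENSMUSG00000042286, chromosome 14, 31139013 to 31168641, minus strand) encodes stabilin-1, a large receptor of macrophages and sinusoidal endothelium that clears modified proteins. It had 0.341, 0.197 and 0.0248 FPKM in CD11b+ replicates 1, 2 and 3 (103, 53 and 9 reads) and 0.0233, 0.0139 and 0.0152 FPKM in CD11b- replicates 1, 2 and 3 (18 reads in all). The groups did not overlap, but CD11b+ replicate 3 was only just above the CD11b- libraries. The ratio of the means was 10.7, and 6.35 without CD11b+ replicate 1. The log2 difference was 0.21 ± 0.13 (SE, limma adjusted p = 0.710). On the opposite strand the gene overlaps *Nt5dc2*, with 5.79 ± 2.22 FPKM in CD11b+ and 5.24 ± 2.49 FPKM in CD11b- B cells. The sources used here do not say whether reads were counted by strand, so low *Stab1* values are uncertain. The 10 endothelial markers summed to 0.302, 0.433 and 0.430 FPKM in CD11b+ replicates 1, 2 and 3, and to at most 0.408 FPKM in CD11b- libraries. *Kdr*, *Emcn*, *Tek* and *Esam* were at 0 in all CD11b- libraries, whereas 0 of the 10 markers had a mean of 0 in CD11b+ B cells. The part of endothelial cells in the *Stab1* values was not tested.

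*Mrc1* (ENSMUSG00000026712, chromosome 2, 14229392 to 14332057, plus strand) encodes the mannose receptor CD206, which binds sugars on microbes and glycoproteins. It had 0.882, 0.510 and 0.249 FPKM in CD11b+ and 1.01, 0.441 and 0.230 FPKM in CD11b- replicates 1, 2 and 3. The ranges nearly coincided. The log2 difference was -0.00094 ± 0.25 (SE, limma adjusted p = 0.9998), and the ratio of the means of 0.978 became 1.63 without CD11b- replicate 1. *Mrc1* holds the microRNA gene *Mir511* on the same strand, which was at 0 in all B cell libraries.

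The TAM receptors *Mertk* and *Axl* encode tyrosine kinases that bind dying cells through bridging proteins. *Mertk* (ENSMUSG00000014361, chromosome 2, 128698956 to 128802894, plus strand) had 0.369, 0.352 and 0.118 FPKM in CD11b+ replicates 1, 2 and 3, from 47, 40 and 18 reads. In CD11b- replicates 1, 2 and 3 it had 0.00691, 0.126 and 0.00719 FPKM, from 1, 19 and 1 reads. CD11b- replicate 2 lay just above the lowest CD11b+ library, so the groups overlapped by this 1 library. The ratio of the means was 6.01, and 39.7 without CD11b- replicate 2. The log2 difference was 0.29 ± 0.13 (SE, limma adjusted p = 0.676).

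*Axl* (ENSMUSG00000002602, chromosome 7, 25757273 to 25788705, minus strand) had 0.656, 1.40 and 0.969 FPKM in CD11b+ replicates 1, 2 and 3, from 97, 184 and 172 reads. In CD11b- replicates 1, 2 and 3 it had 0.0298, 0.00569 and 0.0186 FPKM, from 5, 1 and 3 reads. All CD11b+ libraries were far above all CD11b- libraries. The ratio of the pooled reads, each divided by its depth, was 55.6 with a 95% interval of 29.0 to 122.4. The log2 difference of 0.96 ± 0.19 (SE) had a limma adjusted p of 0.202. CD11b+ B cells had 5.07% of the PM mean of *Axl*, and CD11b- B cells had 0.0907%.

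**Figure D2:**
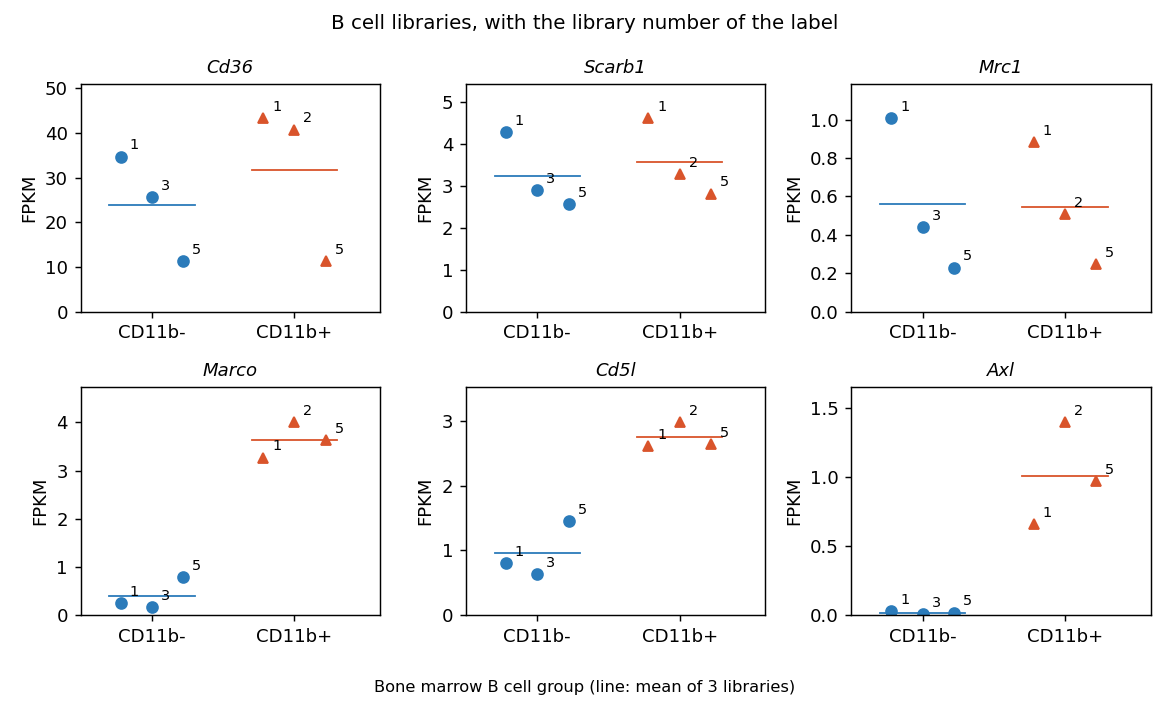
FPKM of *Cd36*, *Scarb1* and *Mrc1* (top) and of *Marco*, *Cd5l* and *Axl* (bottom) in the 6 B cell libraries, each marked with the library number in its label, and a line at the mean of 3 libraries. In the top panels library 1 is the highest and library 5 the lowest in both groups, and in the bottom panels the CD11b+ libraries are all above the CD11b- libraries.

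The descriptions of the B cell libraries carry numbers, and numbers 1 and 5 occur in both groups. They belong to replicates 1 and 3 of each. For 3 of the 10 receptors (*Cd36*, *Scarb1* and *Mrc1*) library 1 was the highest and library 5 the lowest in both groups. At number 1 *Cd36* had 43.2 FPKM in CD11b+ and 34.7 FPKM in CD11b- B cells, and at number 5 it had 11.4 and 11.3 FPKM. At number 5 *Msr1* was lower in CD11b+ (0.112 FPKM) than in CD11b- B cells (0.192 FPKM), whereas *Marco* was 4.58 times as high. Over 12493 genes, the deviations of CD11b+ and CD11b- libraries from their group means correlated at 0.284 for number 1 and 0.206 for number 5. The labels do not say whether a shared number marks the same mouse, and the pattern, seen after the values were known, was not tested. Its share among all genes was not counted.

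CD11b+ replicate 3 was the lowest CD11b+ library for 7 receptors, all but *Marco*, *Cd5l* and *Axl*. How many of all genes were lowest there was not counted. Of the 12 macrophage markers, 6 were lowest, 3 highest and 3 in between in that library. Among the lowest, *Lyz2* had 261.2, 240.3 and 65.4 FPKM and *Csf1r* had 3.56, 3.19 and 1.36 FPKM in CD11b+ replicates 1, 2 and 3. Among the highest, *Fcgr1* had 0.342, 0.280 and 1.47 FPKM and *Apoe* had 71.9, 78.3 and 99.6 FPKM. The 6 markers of erythroblastic-island and splenic macrophages summed to 11.5 FPKM in CD11b+ replicate 3, to 20.4 and 21.7 FPKM in the other two, and to at most 4.90 FPKM in CD11b- libraries. Most of the lower sum came from *Hmox1*, which degrades haem, with 14.0, 12.1 and 5.09 FPKM in CD11b+ replicates 1, 2 and 3. *Slc40a1*, the iron exporter, was also lowest in replicate 3 (0.821, 1.49 and 0.00946 FPKM), as was *Trf* by less (3.68, 4.15 and 3.09 FPKM), whereas *Spic* was highest there (2.07, 1.38 and 2.18 FPKM), *Vcam1* was nearly level (0.994, 1.08 and 0.908 FPKM) and *Siglec1* lowest in replicate 1 (0.0715, 0.246 and 0.230 FPKM). The 12 macrophage markers summed to 761.8 to 905.2 FPKM in CD11b+ and to 501.4 to 573.2 FPKM in CD11b- B cells, mostly from *Ctss*, and none of the 12 was at 0 in either group. All 12, among them *Itgam* by which the groups were sorted, had a higher mean in CD11b+ B cells, and 0 of the 12 passed in limma. The part of these markers in the receptor values was not tested.

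The second question was how the receptors of B cells compare with those of macrophages. Both comparisons use the same PM libraries, so their values are given side by side and are not independent. Against PMs, 9 of the 10 receptors fell in CD11b+ B cells with limma, while 8.78% of the 22102 genes tested fell and 21.5% rose. CD11b- B cells likewise had 9 of the 10 lower, while 11% of the 20985 genes tested fell and 25.8% rose. The receptor that did not pass was *Scarb1* in both. For 9 receptors all B cell libraries lay below all PM libraries, a pattern that 12.4% of genes had in CD11b+ and 15.2% in CD11b- B cells. The median log2 difference of the 10 receptors was -3.76 in CD11b+ B cells, against 0.25 over all genes, and -4.35 in CD11b- B cells, against 0.24 over all genes. Of all genes called, 71.0% were above PMs in the CD11b+ group. Under median-ratio scaling, which shifted the differences by a median of -0.27, this share was 51.0%. For CD11b- B cells it was 70.1% and, under this scaling with a shift of -0.29, 51.4%. All 10 receptors kept their direction under this scaling.

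*Cd5l* differed from PMs by a log2(FPKM + 1) difference of -7.12 ± 0.17 (SE) in CD11b+ and -8.08 ± 0.20 (SE) in CD11b- B cells, and its levels there were 190-fold and 541-fold lower in mean FPKM. *Marco* was 91.1-fold lower in CD11b+ B cells (log2 difference -6.15 ± 0.20) and 824-fold lower in CD11b- B cells (-7.90 ± 0.23), or 1606-fold without CD11b- replicate 3. For *Msr1* the values were 369-fold (-6.64 ± 0.21) and 1103-fold (-6.91 ± 0.17). With the pseudocount of 1 these receptors, the most abundant in PMs, had the greatest log2 differences, but the order of the ratios of means is another one, with *Msr1* above *Cd5l* in both B cell groups. In edgeR, which adds no such pseudocount, *Stab1* had -10.67 and *Cd5l* -9.60 on the log2 scale in CD11b- B cells.

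*Mertk* was 115-fold lower in CD11b+ and 692-fold lower in CD11b- B cells than in PMs, where it had 38.4, 26.4 and 31.8 FPKM. Without CD11b- replicate 2 the second fold was 4567. It shares its place with *Gm14011* on the opposite strand, which had 3.73 ± 2.18 FPKM in PMs and 0 in all B cell libraries. *Axl* was 19.7-fold lower in CD11b+ and 1102-fold lower in CD11b- B cells than in PMs, where it had 24.8, 18.1 and 16.7 FPKM. The log2 differences of *Axl* were -3.37 ± 0.27 and -4.34 ± 0.25 (SE). Both receptors were separated from PMs by every library.

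*Stab1* had 19.7, 15.4 and 26.4 FPKM in PMs and was 109-fold lower in CD11b+ and 1174-fold lower in CD11b- B cells. Without CD11b+ replicate 1 the first of these was 185-fold. *Mrc1* had 13.8, 9.15 and 13.9 FPKM in PMs and was 22.5-fold lower in CD11b+ and 21.97-fold lower in CD11b- B cells, or 36.6-fold without CD11b- replicate 1. *Cd163* had 2.17, 5.91 and 5.45 FPKM in PMs, the lowest of the set there, and was 20.5-fold lower in CD11b+ B cells, or 31.6-fold without CD11b+ replicate 1. Its mean FPKM was 1235-fold lower in CD11b- B cells, on 2 reads there. For pooled reads divided by depth this ratio was 1308 with a 95% interval of 361 to 10806 for counting error alone. The adjusted p-values of limma for *Stab1*, *Mrc1* and *Cd163* were at most 0.00484 in both comparisons.

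*Cd36* differed less from PMs than the receptors above, being 3.13-fold lower in CD11b+ B cells (log2 difference -1.79 ± 0.48, limma adjusted p = 0.0236) and 4.16-fold lower in CD11b- B cells (-2.12 ± 0.39, adjusted p = 0.00473). In CD11b+ B cells the call was lost without PM replicate 2 (adjusted p = 0.0578), without PM replicate 3 (adjusted p = 0.0759) and with no filter on FPKM (adjusted p = 0.0776). *Scarb1* was 1.67-fold lower in CD11b+ (limma adjusted p = 0.207) and 1.84-fold lower in CD11b- B cells (adjusted p = 0.124). With median-ratio scaling *Scarb1* passed in CD11b+ B cells (limma adjusted p = 0.0421, with 12.1% of all genes called lower) and in CD11b- B cells (adjusted p = 0.0250, with 15% called lower). edgeR with a filter called it too, at an adjusted p of 0.0193 in CD11b+ and 0.0113 in CD11b- B cells, where 18.1% and 20.9% of all genes were called lower. The relation of *Scarb1* to PMs therefore turns on the scaling and the test.

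**Figure D3:**
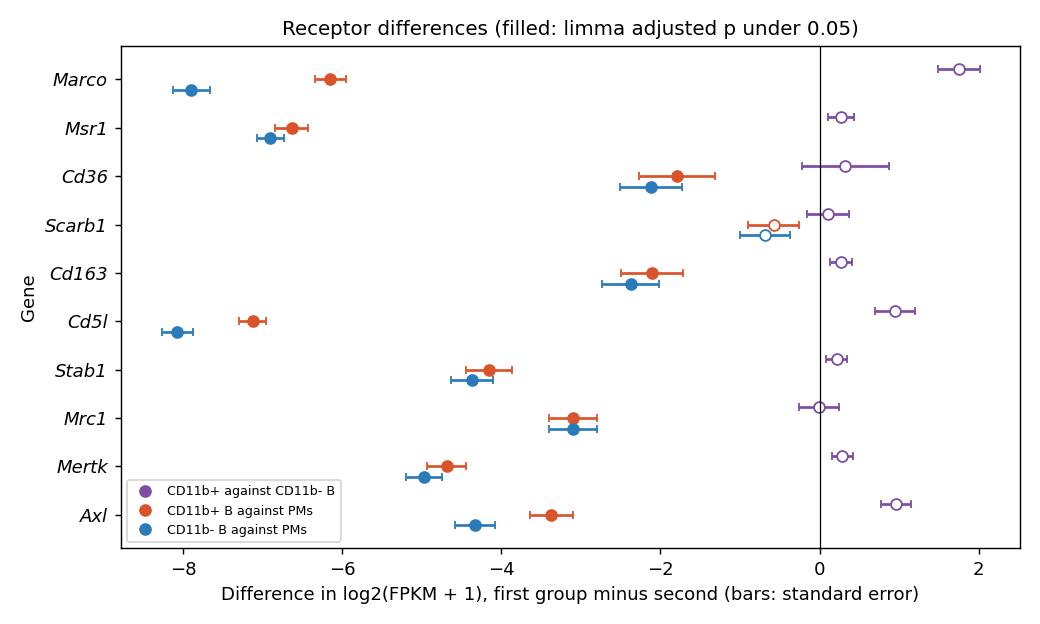
Difference in log2(FPKM + 1) of the 10 receptors for CD11b+ against CD11b- B cells, CD11b+ B cells against PMs and CD11b- B cells against PMs, with bars for the standard error of the limma fit and filled points for an adjusted p under 0.05. None of the 10 points of the B cell comparison is filled, and 9 of 10 are filled in each comparison with PMs.

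As a share of the PM mean, the 10 receptors had medians of 2.48%, 2.68% and 0.802% in CD11b+ replicates 1, 2 and 3, and the 12 macrophage markers had 0.679%, 0.583% and 0.540%. The gap between both medians was narrowest in replicate 3. The medians in CD11b- B cells were 0.119% to 0.192% for the receptors and 0.0840% to 0.120% for the markers. Over the means of CD11b+ B cells the receptors ranged from 0.271% (*Msr1*) to 59.9% (*Scarb1*) and the markers from 0.376% (*C1qc*) to 37.3% (*Ctss*). By library, *Axl* had 3.30%, 7.03% and 4.88% and *Cd163* had 8.29%, 6.20% and 0.115% of the PM mean in CD11b+ replicates 1, 2 and 3. *Cd163* in replicate 3 was thus below every marker, the lowest of which was *Lyz2* with 0.173%. The marker *Fcgr1* had 2.20%, 1.81% and 9.46% in the same libraries and was above *Axl* in replicate 3. By their means all receptors but *Msr1*, which was below, and *Scarb1*, which was above, lay within the range of the markers. The upper end of that range was *Ctss* alone, which also had 33.0% of the PM mean in CD11b- B cells. The next highest marker in CD11b+ B cells was *Fcgr1* with 4.49%. *Cd163* (4.87%), *Axl* (5.07%) and *Cd36* (32.0%) were above it. In CD11b- B cells *Cd36*, *Scarb1* and *Mrc1* had 24.0%, 54.4% and 4.55% of the PM mean, and the other 7 receptors had at most 0.185%.

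**Figure D4:**
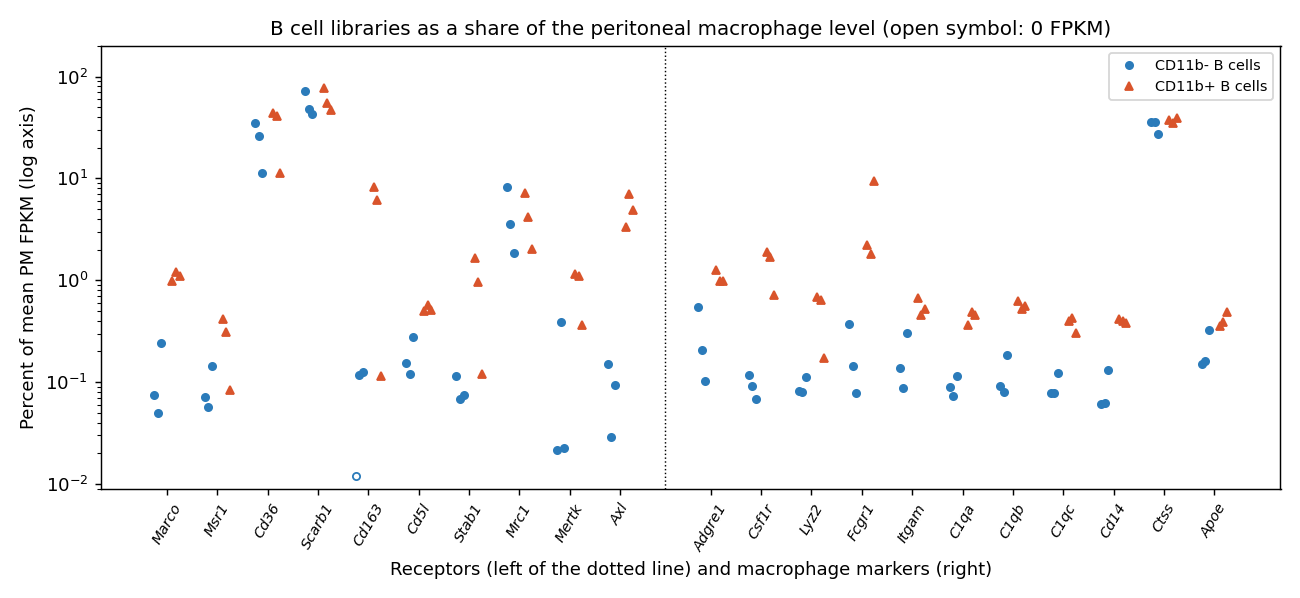
Each B cell library as a percent of the mean PM level on a log axis, for the 10 receptors (left) and 11 of the 12 macrophage markers (right), with circles for CD11b- and triangles for CD11b+ B cells. *Cd36*, *Scarb1* and *Mrc1* are the receptors with a like share in both B cell groups, and *Ctss* is the marker with a like share.

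Genes that work with these receptors were described by lists, which were also chosen with earlier results of these data known. Of 19 other scavenger receptors, 9 were tested between the B cell groups and 0 passed in limma. Against PMs 12 were tested, and in CD11b+ B cells 7 fell and 3 rose, where 8.78% of all genes fell and 21.5% rose. The counts for CD11b- B cells were 8 and 3, where 11% of all genes fell and 25.8% rose, so the shares that rose were near those of all genes. *Lrp1*, an endocytic receptor for many ligands, was 307-fold lower in CD11b+ than in PMs, and *Cd68*, a lysosomal membrane protein of macrophages, was 32.9-fold lower. *Ly75* (DEC-205, an endocytic lectin) was 25.4-fold higher and *Ager* (the receptor for glycated proteins) 28.7-fold higher in CD11b+ B cells than PMs. PM replicate 2 had the most of both genes there, and without it the folds were 132 for *Ly75* and 65.7 for *Ager*. All 4 differed from PMs in the same direction in CD11b- B cells.

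Of 9 other receptors for dying cells, 8 were tested between the B cell groups and 1 rose, which was *Cd300lf*, a receptor for phosphatidylserine and ceramide, where 0.0689% of all genes rose. Against PMs 7 of the list were tested, of which 2 rose and 2 fell in CD11b+ B cells (21.5% and 8.78% of all genes) and 1 rose and 2 fell in CD11b- B cells (25.8% and 11% of all genes). Between the B cell groups *Cd300lf* had 3.49, 3.83 and 3.34 FPKM in CD11b+ and 0.157, 0.0501 and 0.158 FPKM in CD11b- replicates 1, 2 and 3. The groups were far apart, with a log2 difference of 2.02 ± 0.22 (SE, limma adjusted p = 0.0351). The call was lost without any one of the libraries except CD11b+ replicate 3, with adjusted p-values up to 0.208. It was also lost with no filter on FPKM (limma adjusted p = 0.164) and with a replicate block by the number in the title (0.0981) or in the description (0.656). In the fits that lost it the log2 difference was 1.93 to 2.05. The call was kept with a pseudocount of 0.1 (limma adjusted p = 0.0255), a minimum of 1 FPKM (0.0206), all 9 libraries in one fit (0.0199) and median-ratio scaling (0.0331), and in edgeR with a filter (0.00969), edgeR without one (5.23e-21), DESeq2 (6.44e-30) and edgeR on the second table (0.00821). On the opposite strand it overlaps *Rab37*, with 0.557 ± 0.116 FPKM in CD11b+ and 0.738 ± 0.0212 FPKM in CD11b- B cells. PMs had 1.596, 0.785 and 0.414 FPKM of *Cd300lf*, below all CD11b+ libraries (limma adjusted p = 0.0213). Against PMs the ratio of the means was 3.82, and 5.93 without PM replicate 1. This call was lost under median-ratio scaling (limma adjusted p = 0.0757) and in edgeR with a filter (0.0728) and without one (0.0855). Leaving out PM replicate 2 or 3 or CD11b+ replicate 1 or 2 also ended it, with limma adjusted p-values of 0.0551 to 0.0809.

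In the same list *Timd4* and *Cd14* were 552-fold and 251-fold lower in CD11b+ B cells than in PMs. *Havcr1* rose from 0.0294 FPKM in PMs to 2.14 FPKM in CD11b+ B cells, a 72.5-fold difference. This difference rests on 4 PM reads and is 178-fold without PM replicate 3. *Itgb3* had a mean in CD11b- B cells 2.07-fold that of PMs (limma adjusted p = 0.0422). The *Itgb3* call was lost under median-ratio scaling (limma adjusted p = 0.315), in edgeR with a filter (0.1995) and without one (0.224), in DESeq2 (0.2201), with no filter on FPKM (0.0716), with a replicate block by the number in the title (0.0741) and without any one of the libraries except PM replicate 1, with adjusted p-values up to 0.116. *Timd4* and *Havcr1* both encode receptors of the TIM family for phosphatidylserine.

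All 9 bridging molecules and opsonins were tested and 0 passed between the B cell groups. Against PMs 7 fell and 0 rose in each B cell group, while 8.78% of all genes fell and 21.5% rose in CD11b+ B cells. For CD11b- B cells the shares of all genes were 11% and 25.8%. *Gas6*, the ligand of *Axl* and *Mertk*, had 0.107, 0.255 and 0.0445 FPKM in CD11b+ and 0.0588, 0.0337 and 0 FPKM in CD11b- replicates 1, 2 and 3. *Pros1*, which encodes protein S, had 85.0 ± 13.3 FPKM in PMs, compared with 0.275 ± 0.198 FPKM in CD11b+ and 0.0783 ± 0.0203 FPKM in CD11b- B cells. *C1qc* and *C1qa*, parts of the first complement component, were 266-fold and 230-fold lower in CD11b+ B cells than in PMs.

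The engulfment machinery comprised 14 genes, of which 12 were tested between the B cell groups, where 0 passed, with a median log2 difference of -0.21 against 0.03 over all genes. Against PMs 6 of 13 rose and 1 fell in CD11b+ B cells, where 21.5% of all genes rose and 8.78% fell. In the CD11b- group 7 of 13 rose and 1 fell, where 25.8% of all genes rose and 11% fell. *Rubcn*, a regulator of phagocytosis with the autophagy proteins, was 11.3-fold higher and *Vav1*, an exchange factor for Rac, 3.07-fold higher in CD11b+ B cells than PMs. *Dock1*, another exchange factor for Rac, was 120-fold lower there.

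For lipid handling after uptake, 12 of 12 genes were tested and 0 passed between the B cell groups. Against PMs 5 fell and 0 rose in each, where 8.78% of all genes fell and 21.5% rose in CD11b+ B cells. For CD11b- B cells the shares of all genes were 11% and 25.8%. *Rxra*, a nuclear receptor partner, was 33.3-fold lower and *Npc2*, which moves cholesterol out of lysosomes, 5.85-fold lower in CD11b+ B cells than in PMs. *Nr1h3*, the sterol-sensing LXRα, was 60.3-fold lower in CD11b- B cells, or 37.8-fold without PM replicate 1.

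Of 10 transcription factors of macrophages 9 were tested between the B cell groups and 0 passed. Against PMs 8 fell and 2 rose in CD11b+ B cells (8.78% and 21.5% of all genes), and 7 fell and 2 rose in CD11b- B cells (11% and 25.8% of all genes). *Cebpb* was 259-fold lower in CD11b+ B cells than in PMs, 441-fold without CD11b+ replicate 3 and 172-fold without PM replicate 1. *Irf8* was 5.76-fold higher, and *Spic*, the factor of red pulp macrophages, had 2 reads in all PM libraries together, but 1.88 ± 0.433 FPKM in CD11b+ and 0.518 ± 0.0367 FPKM in CD11b- B cells. *Spi1*, which encodes PU.1, had 96.7 ± 31.7 FPKM in PMs, and its levels of 37.8 ± 4.75 FPKM in CD11b+ and 43.9 ± 6.18 FPKM in CD11b- B cells overlapped.

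All 5 genes for inhibitory signals against uptake were tested and 0 passed between the B cell groups. Against PMs 4 rose and 1 fell in each, while 21.5% of all genes rose and 8.78% fell in CD11b+ and 25.8% rose and 11% fell in CD11b- B cells. *Siglecg* was 57.5-fold higher and *Pecam1* 77.8-fold higher in CD11b+ B cells than PMs, the latter 142-fold without PM replicate 3. *Sirpa*, the receptor for CD47 on phagocytes, was the gene that fell, with means of 54.5 FPKM in PMs, 5.74 FPKM in CD11b+ and 0.924 FPKM in CD11b- B cells.

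Over the 9 libraries, the gene whose log2(FPKM + 1) followed each receptor most closely was taken from 12492 genes with a mean of at least 1 FPKM. It was *C1qc* for *Cd5l* (Pearson's r = 0.998), *Ahnak* for *Marco* (0.997), *Emilin2* for *Msr1* (0.9999), *Cd33* for *Stab1* (0.9997), *Hacd4* for *Mertk* (0.9997), *Slfn1* for *Axl* (0.996), *Pi16* for *Cd163* (0.996) and *2510009E07Rik* for *Mrc1* (0.998). *Cd36* was nearest to *Gm49226* (0.976) and *Scarb1* to *Snap23* (0.941). The libraries fall into PMs and B cells, so these correlations mostly describe that one contrast. *Cd36* and *Scarb1* had 0 genes with r over 0.99, against 239 for *Cd5l* and 298 for *Msr1*.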

How the data were processed

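RNA of 9 libraries was analysed, 3 per group, assigned from the sample labels. The authors trimmed reads (Trim Galore 0.4.4, Trimmomatic 0.36, cutadapt 1.16), mapped them to GRCm38 with STAR 2.7.2b, counted them on genes with featureCounts 1.6.1 and found differentially expressed genes with DESeq2 1.20.0. The submitters' processing notes also name GRCm39, and the build of the table's positions was not settled. Positions here come from GENCODE M21 on GRCm38 by gene identifier, and promoters from RefSeq on GRCm38.p6. The deposited FPKM are those of 55322 genes. A second deposited table gives a normalized signal (the counts of each library over its size factor) for 11063 genes that the authors selected by a p of 0.05, without a test being tied to this selection, with a cluster column that was not used. It holds all 10 receptors.

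What follows was computed here. FPKM gave whole reads for 100% of values, within 0.05 of a read, and those of the second table were all equal to them. Depth was 18014658 to 35251215 reads per library, and intervals reflect counting error alone. Groups were compared with limma 3.58.1 in R 4.3.3 (trend, two-sided, unpaired) on log2(FPKM + 1), among genes with a mean of at least 0.05 FPKM over the 6 libraries compared, with Benjamini-Hochberg adjustment over all of them. Fold changes on this scale understate the change of low genes. Ratios of means are of FPKM without a pseudocount. Single genes were also tested by an exact permutation test. Alternatives were a pseudocount of 0.1, no filter or a minimum of 1 FPKM, all 9 libraries in one fit, replicate blocks, median-ratio scaling, edgeR 4.0.16 and DESeq2 1.42.0 on the whole reads, and leaving out each library. The tests were first checked on simulated data. The changed genes in that check had a mean of at least 1 FPKM, so it does not cover changes of genes below that level.

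The receptors and gene lists were chosen with earlier results of these data known. Genes named from the lists are those past the threshold between the B cell groups and the strongest 2 in each direction against PMs. *Itgam*, *Gas6*, *Pros1*, *Spi1* and the single markers named were added after their values were seen. Single values of 2 list genes are not reported here.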

Additional observations from a re-analysis of the deposited data

How the results depend on the processing

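Between the B cell groups the number of receptors called was 0 in the main limma test, in every leave-one-out fit (0 to 0), with a replicate block by either numbering (0 and 0), with median-ratio scaling and with other filters or a pseudocount of 0.1. It was 1 with all 9 libraries in one fit (*Marco*), 1 in edgeR with a filter and 1 on the reads of the second table (*Axl* in both), 3 in edgeR with no filter and 5 in DESeq2. Against PMs it was 9, and 8 to 10 over the alternatives in CD11b+ and 9 to 10 in CD11b- B cells, with *Scarb1* added by median-ratio scaling, edgeR and DESeq2. Of 160 receptor values per comparison, 152 and 155 kept direction and side of the threshold against PMs, and 142 did so between the B cell groups. The signs that turned there were those of 3 receptors. *Cd36* went to -0.12 without CD11b- replicate 3 (range over left-out libraries -0.12 to 0.92). *Scarb1* went to -0.0071 without CD11b- replicate 3 and to -0.048 without CD11b+ replicate 1 (range -0.048 to 0.28). *Mrc1* went to 0.027 with a pseudocount of 0.1, 0.20 without CD11b- replicate 1, 0.0065 without CD11b+ replicate 2 and 0.14 without CD11b+ replicate 3 (range -0.16 to 0.20). The cause was not tested.

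Over all genes, limma called 15 higher and 0 lower between the B cell groups (1012 and 661 at an unadjusted p under 0.05). The counts were 34 and 3 with a pseudocount of 0.1, 2 and 0 with no filter, 31 and 0 with a minimum of 1 FPKM, 31 and 5 with all 9 libraries, 42 and 0 in edgeR with a filter, 416 and 155 with no filter, 349 and 52 in DESeq2 and 59 and 0 on the second table, and 3 to 40 were higher with a library left out. The replicate block gave 16 and 0 by the number in the title and 0 and 0 by the number in the description. Libraries with the same title number deviated with correlations of 0.284, -0.0193 and 0.206, and the pairs at 0.284 and 0.206 also share a description number. The labels do not say what the numbers mark, and these data do not settle whether they pair the samples. Against PMs the counts moved by over 1.5 times in CD11b+ B cells from 4760 higher to 2769 with median-ratio scaling, 2850 and 3135 in edgeR with and without a filter and 3152 without CD11b+ replicate 2, and from 1940 lower to 3444 in DESeq2. In CD11b- B cells they moved from 5404 higher to 3333 with median-ratio scaling and 3200 in edgeR with a filter, and from 2306 lower to 3667 in edgeR with no filter and 4143 in DESeq2. In CD11b- B cells *Cd163*, *Axl*, *Stab1* and *Mertk* rest on 2, 9, 18 and 21 reads over 3 libraries.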
